A study of Homo sapiens with 12 samples.

Results

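The 9 genes described here, ITGA2, ITGA3, ITGA5, ITGA6, ITGAV, ITGB1, ITGB3, ITGB4 and ITGB5, encode subunits of the integrins, and they are followed through mRNA co-precipitation with the cap-binding protein eIF4E. The array has single-gene probe sets for 11963 genes, of which these are 9, and every probe set whose only annotated gene is one of the 9 was taken. This gave 26 of 19064 single-gene probe sets: 7 for ITGB3, 5 for ITGB1, 4 each for ITGB4 and ITGB5, 2 for ITGA6 and 1 each for ITGA2, ITGA3, ITGA5 and ITGAV. The probe sets were taken by annotation alone, but the 9 genes were chosen with earlier results of these data known.

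The cells were MDA-MB-231, an established human breast cancer line with a mesenchymal character, grown in 1 kind of serum-containing medium. RNA was recovered from lysates by RIP-chip, in which an antibody pulls down a protein with the RNA bound to it and the RNA is read on a microarray, here an Affymetrix one. Each of the 4 groups holds 3 arrays, which the design text calls biological replicates: IgG precipitates of untreated cells, IgG precipitates of cells given 2 Gy of X-rays and taken 6 h later, eIF4E precipitates of untreated cells, and eIF4E precipitates of cells irradiated in the same way. IgG, an antibody with no chosen target, measures what sticks to the procedure itself. What the replicates share (a culture, a day) is given no further, so each p-value measures the spread between these arrays alone. All groups come from 1 line, and no array of total lysate RNA was analysed here, so a difference between precipitates cannot be split into binding and lysate level. Each array also averages over a whole culture, in which fewer cells with a transcript and less transcript per cell cannot be told apart.

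An integrin is a pair of one alpha and one beta chain that spans the plasma membrane, binds matrix proteins outside the cell and, through talin and kindlin, the actin cytoskeleton inside. ITGB1 is the shared partner of most alpha chains: with ITGA2 it forms a collagen receptor, with ITGA3 and ITGA6 laminin receptors, and with ITGA5 the main fibronectin receptor. ITGA6 also pairs with ITGB4 in hemidesmosomes, and ITGAV pairs with ITGB3 or ITGB5 in receptors for vitronectin and other proteins that carry an Arg-Gly-Asp motif. Integrins are known in breast cancer cells for their part in adhesion, migration and survival after stress. eIF4E binds the cap at the start of an mRNA and brings it to the ribosome, so its precipitates are used as a measure of mRNA held in cap-binding complexes.

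The stretch just upstream of the annotated gene start is printed for 6 of the genes, so that members that fell in eIF4E precipitates (ITGB1, ITGA6, ITGA2, ITGAV) can be read against members with no call in the mean antibody comparison (ITGA5, ITGB5). Each is 120 bases of RefSeq promoter sequence on GRCh38.p14, written 5′ to 3′ along the gene's own strand and ending at the base before the gene start. Capitals mark GC boxes, GGGCGG on either strand (CCGCCC on the other).
ITGB1: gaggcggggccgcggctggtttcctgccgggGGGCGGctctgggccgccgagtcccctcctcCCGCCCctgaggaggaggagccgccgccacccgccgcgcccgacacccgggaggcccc
ITGA6: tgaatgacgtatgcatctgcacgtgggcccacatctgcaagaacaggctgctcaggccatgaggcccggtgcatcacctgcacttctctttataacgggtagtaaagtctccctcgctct
ITGA2: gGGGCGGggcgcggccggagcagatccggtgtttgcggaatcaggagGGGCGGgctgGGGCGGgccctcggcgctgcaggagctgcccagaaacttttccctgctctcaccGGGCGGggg
ITGAV: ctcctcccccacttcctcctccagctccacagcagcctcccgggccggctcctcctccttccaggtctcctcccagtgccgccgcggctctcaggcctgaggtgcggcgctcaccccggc
ITGA5: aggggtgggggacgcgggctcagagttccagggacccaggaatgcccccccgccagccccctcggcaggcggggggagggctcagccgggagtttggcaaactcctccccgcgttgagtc
ITGB5: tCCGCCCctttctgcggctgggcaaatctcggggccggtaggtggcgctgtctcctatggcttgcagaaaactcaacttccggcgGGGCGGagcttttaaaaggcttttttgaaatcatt

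These windows lie at chr10:32958231-32958350 on the minus strand for ITGB1, chr2:172427216-172427335 on the plus strand for ITGA6 and chr5:52989232-52989351 on the plus strand for ITGA2. Those of ITGAV (chr2:186589936-186590055, plus), ITGA5 (chr12:54419267-54419386, minus) and ITGB5 (chr3:124901419-124901538, minus) complete the set. The windows are of promoter DNA and hold no transcribed base from that start, and further annotated starts of some of these genes are not shown. ITGA3, ITGB3 and ITGB4 are named only.

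The ITGB1 window is 82.5% G and C, that of ITGA2 74.2%, of ITGAV 73.3%, of ITGA5 72.5%, of ITGB5 55.0% and of ITGA6 54.2%, where the middle 50% of 35116 RefSeq promoter windows of the same length ran from 47.5% to 70.8%. GC boxes number 4 in ITGA2 and 2 each in ITGB1 and ITGB5, with 0 in ITGA6, ITGAV and ITGA5, and 34.0% of all the windows hold at least 1. The ITGA6 window holds 1 TATA box (TATAAA on either strand, in 5.63% of all windows). None of the 6 holds CCAAT (either strand, 20.4% of all windows) or the AP-1 letters TGANTCA (3.34%). GC-box presence in these windows therefore did not separate the genes called lower from the others in this small set. Windows at further starts can differ. A second ITGA6 window is 73.3% G and C, with 2 GC boxes and 0 TATA boxes. A second ITGB1 window is 29.2%, with 0 GC boxes and 3 TATA box matches counted over both strands, some of them overlapping. A match is a match of letters and says nothing about binding.

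Signals are the deposited MAS5 values, one linear intensity per probe set and array, scaled by the submitters so that the mean without the outer 2% of probe sets at either end was 500.2 on every array. They were analysed as log2(signal + 16), a scale that understates differences of dim probe sets. 10566 single-gene probe sets above a level of 57.4 were tested with limma, and a call is an adjusted p (Benjamini-Hochberg over all of them) under 0.05. Of the 26 integrin probe sets, 11 from 8 genes passed this filter, with geometric mean signals from 101.4 to 12162, and the remaining 15 had means from 4.74 to 46.8. A filter on the mean over all arrays can keep a probe set through its bright group alone, so all 26 were also fitted with no filter.

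The arrays of the antibodies differed beyond the integrins. The 3′/5′ signal ratio of actin, a measure of RNA integrity and labelling, was 2.96 to 5.38 after IgG and 1.33 to 1.53 after eIF4E precipitation, and that of GAPDH was 2.03 to 2.78 against 1.13 to 1.31. Alu repeat signal was 36876 to 53246 against 13482 to 18476, signal of the hybridization controls 2052 to 8728 against 440 to 1245, and that of the poly-A controls 933 to 2379 against 16 to 28. In each of these 5 measures the 6 IgG arrays did not overlap the 6 eIF4E arrays (exact two-sided permutation test, p = 0.00216, the smallest this design allows). Scaling on the hybridization controls instead would add 2.60 to every log2 difference of eIF4E against IgG, so that the integrin probe sets called lower here would stand higher. Every difference below is therefore relative to the other probe sets of the same arrays, and the part of these measures in it was not tested.

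The 8 markers fixed for MDA-MB-231 cells (among them VIM, CAV1 and AXL) were all above the filter, with summed signals of 84382 to 105220 on IgG arrays and 55164 to 65104 on eIF4E arrays. Of 7 luminal markers 5 were above it (GATA3, KRT8, KRT18, EPCAM and ERBB3; summed 9298 to 15717 against 12385 to 16277), whereas ESR1 and CDH1 were not. Of 5 measured leukocyte markers CD14 alone was above it (summed 87.8 to 258 against 91.8 to 228). All 4 markers of platelets or endothelium (59.5 to 151 against 128 to 236), all 5 of liver (37.3 to 126 against 47.6 to 121) and all 5 of neuron or muscle (163 to 258 against 57.7 to 136) stayed below it.

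In the mean of both treatments, ITGAV, ITGA6, ITGB1 and ITGA2 mRNA was lower in eIF4E than in IgG precipitates, with 6 arrays an antibody. The folds were 3.67 for ITGAV, 2.66 for ITGA6 and 2.23 for ITGB1, and none is given for the dimmer ITGA2, whose size depends on the scale. ITGA3, ITGA5, ITGB4 and ITGB5 passed no threshold in that comparison, and no tested integrin probe set was higher. This makes 5 of the 11 tested probe sets lower and 0 higher, where 69.8% of all tested probe sets were called, 31.5% higher and 38.3% lower. The share lower is thus near the background, and the absence of higher calls stands beside a background of 31.5% over 11 probe sets. The median difference was −0.39 log2 over the 11 and −0.08 over all 10566. The same 5 probe sets were the ones whose 6 eIF4E arrays all lay below the 6 IgG arrays. 0 lay wholly above, and 48.6% of all tested probe sets had arrays that did not overlap in either direction.

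**Figure D1:**
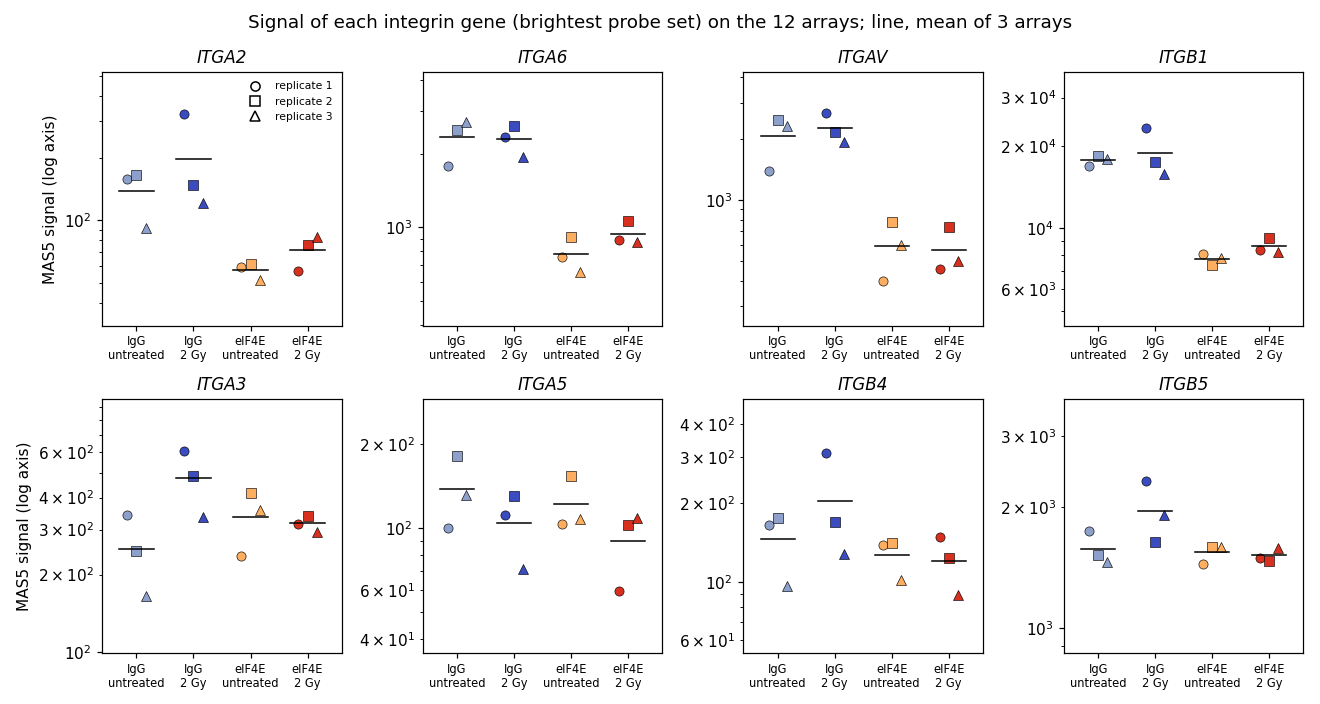
MAS5 signal (log axis) of the brightest probe set of each of the 8 tested integrin genes on the 12 arrays, by group, with a point for each array, a marker shape for each replicate number and a line at the mean of 3 arrays. ITGB1, ITGA6, ITGAV and ITGA2 sit lower in both eIF4E groups than in both IgG groups, and for ITGA3, ITGA5, ITGB4 and ITGB5 the 6 arrays of either antibody overlap.

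ITGB1, the shared beta chain, was measured by 1 probe set above the filter (211945_s_at). Its signals were 16936, 18358 and 17948 on the IgG arrays of untreated cells, 23289, 17475 and 15798 on the IgG arrays of irradiated cells, 8053, 7337 and 7802 on the eIF4E arrays of untreated cells, and 8361, 9224 and 8199 on the eIF4E arrays of irradiated cells. The eIF4E arrays form a narrow band well below all IgG arrays. The log2 difference was −1.20 ± 0.14 (SE) in untreated cells (adjusted p = 2.51e-06), −1.11 ± 0.14 in irradiated cells (4.96e-06) and −1.16 ± 0.10 in the mean of both (2.65e-08). Of all tested probe sets, 10.6% had a lower difference.

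ITGA6, the laminin-binding alpha chain, had 2 probe sets, both above the filter. On 201656_at the signals were 1786, 2510 and 2701 (IgG, untreated), 2340, 2601 and 1945 (IgG, irradiated), 753.4, 913.6 and 660.3 (eIF4E, untreated) and 889.4, 1064 and 869.2 (eIF4E, irradiated). On 215177_s_at they were 1624, 1849 and 1931, then 2118, 972.8 and 1649, then 573.3, 560.7 and 552.6, and last 806.2, 716.1 and 695.3 in the same order of groups. On both, every IgG array exceeded every eIF4E array, with the IgG array of irradiated replicate 2 the lowest of its kind on the second probe set.

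The 2 probe sets gave like differences: −1.41 ± 0.13 (adjusted p = 5.26e-08) and −1.33 ± 0.15 (5.72e-07) in the mean of both treatments. In untreated cells they were −1.56 ± 0.18 (2.49e-06) and −1.65 ± 0.21 (6.08e-06), and in irradiated cells −1.27 ± 0.18 (1.84e-05) and −1.01 ± 0.21 (0.000578). Probe sets of one gene are read on the same arrays and are not replicates of each other.

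ITGA3, the other laminin-binding alpha chain that pairs with ITGB1, did not follow ITGA6. Its signals (201474_s_at) were 340.7, 247.9 and 164.7 on IgG arrays of untreated cells, 605.7, 484.4 and 335.3 on IgG arrays of irradiated cells, 236.4, 416.8 and 358.2 on eIF4E arrays of untreated cells, and 316.6, 340.2 and 293.6 on eIF4E arrays of irradiated cells. The antibodies overlapped, and the IgG arrays spread more widely than the eIF4E arrays. The difference was 0.42 ± 0.26 in untreated cells (adjusted p = 0.178), −0.53 ± 0.26 in irradiated cells (0.0952) and −0.05 ± 0.18 in the mean of both (0.813; 95% interval −0.44 to 0.34).

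The ITGA3 value in untreated cells moved with single arrays in both directions. It was 0.66 without IgG replicate 1 (adjusted p = 0.0467) and 0.65 without eIF4E replicate 1 (0.0591), but 0.17 without IgG replicate 3 (0.616) and 0.26 without eIF4E replicate 2 (0.476). Without all arrays numbered 1 it was 0.88 (0.00528), without all numbered 3 it was 0.11 (0.787), and with arrays weighted by quality 0.62 (0.0133). In irradiated cells, leaving out IgG replicate 3 gave −0.75 (0.0307) and leaving out IgG replicate 1 gave −0.34 (0.318). The 2 treatments thus had values of opposite sign, and the test of their difference is given with irradiation below.

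ITGB4, the beta chain of hemidesmosomes, had 1 of 4 probe sets above the filter. The signals of 204990_s_at ran from 96.67 to 311.0 on the IgG arrays (median 167.4) and from 89.14 to 148.7 on the eIF4E arrays (median 130.3). The groups overlapped, with the top value on IgG irradiated replicate 1. The mean difference was −0.39 ± 0.21 (adjusted p = 0.113; interval −0.84 to 0.06), with −0.16 ± 0.30 (0.677) in untreated and −0.62 ± 0.30 (0.0871) in irradiated cells. With the replicate number as a block it passed the threshold in irradiated cells (adjusted p = 0.0239) and in the mean (0.0363). It also passed without IgG irradiated replicate 3 (irradiated cells −0.88, 0.0268, and mean −0.52, 0.039) and, in the mean, without IgG untreated replicate 3 (−0.51, 0.0426). Without IgG irradiated replicate 1 the values were −0.29 (0.414) in irradiated cells and −0.22 (0.315) in the mean. In untreated cells, single arrays left out moved it between −0.40 and −0.02.

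ITGA2, the collagen-binding alpha chain, was dimmer (205032_at). Its signals were 157.7, 165.9 and 92.16 (IgG, untreated), 325.6, 147.7 and 120.7 (IgG, irradiated), 59.63, 61.29 and 51.48 (eIF4E, untreated), and 56.93, 75.86 and 83.11 (eIF4E, irradiated). All eIF4E arrays lay below all IgG arrays, and IgG irradiated replicate 1 stood far above the others. The difference was −1.04 ± 0.32 in untreated cells (adjusted p = 0.0105), −1.18 ± 0.32 in irradiated cells (0.0048) and −1.11 ± 0.23 in the mean of both (0.000344).

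The ITGA2 signals on eIF4E arrays lie close to those of genes these cells should not express. Over 17 markers of liver, leukocytes, platelets or endothelium and neuron or muscle, the 90th percentile of signals was 67.8, which 4 of the 6 eIF4E arrays did not reach and 2, both of irradiated cells, exceeded. CD14, which was above the filter, is among the 17 and may raise this level. The size of the ITGA2 difference accordingly moved with the pseudocount, from −1.27 with 1 to −0.79 with 64. Its call was lost in untreated cells once all 4 arrays numbered 2 were left out (−0.94, adjusted p = 0.0971) and in irradiated cells once those numbered 1 were (−0.65, 0.102).

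ITGAV, the alpha chain of the vitronectin receptors, fell the most of the tested integrin probe sets (202351_at). Its signals were 1383, 2476 and 2299 on IgG arrays of untreated cells, 2661, 2160 and 1921 on IgG arrays of irradiated cells, 400.9, 781.3 and 598.4 on eIF4E arrays of untreated cells, and 458.1, 735.9 and 498.7 on eIF4E arrays of irradiated cells. The highest eIF4E array did not reach the lowest IgG array. The difference was −1.77 ± 0.25 (adjusted p = 2.08e-05) in untreated cells, −1.98 ± 0.25 (6.99e-06) in irradiated cells and −1.87 ± 0.18 (1.10e-07) in the mean of both. Of all tested probe sets, 1.08% had a lower mean difference.

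ITGB5, a beta partner of ITGAV, showed no such fall. The signals of 201125_s_at were 1739, 1518 and 1463 (IgG, untreated), 2322, 1641 and 1911 (IgG, irradiated), 1443, 1595 and 1587 (eIF4E, untreated) and 1497, 1472 and 1582 (eIF4E, irradiated). In untreated cells the antibodies overlapped, and in irradiated cells every eIF4E array lay below every IgG array. The difference was −0.03 ± 0.14 (adjusted p = 0.887), −0.35 ± 0.14 (0.0465) and −0.19 ± 0.10 (0.109) in untreated cells, irradiated cells and the mean.

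The ITGB5 call in irradiated cells lies at the threshold and was lost on leaving out any of 10 of the 12 arrays (adjusted p = 0.0538 to 0.174). The difference stayed between −0.38 and −0.33 in 9 of these 10 and was −0.22 without IgG irradiated replicate 1. The other ITGB5 probe sets above the filter gave −0.33 ± 0.16 (201124_at, adjusted p = 0.0769; IgG signals 101.7 to 148.4, eIF4E 77.08 to 115.9) and −0.07 ± 0.16 (214020_x_at, 0.712; 148.7 to 285.1 against 138.0 to 257.5) in the mean of both treatments. Neither was called in either treatment, and on both the antibodies overlapped over all 12 arrays. Within each treatment, however, every eIF4E array of 201124_at lay below every IgG array.

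ITGA5, the fibronectin receptor's alpha chain, had signals of 71.45 to 181.1 on IgG arrays (201389_at, median 120.9) and 59.46 to 154.1 on eIF4E arrays (median 105.9). These overlapped over most of their range. The mean difference was −0.16 ± 0.20 (adjusted p = 0.495; interval −0.59 to 0.27), with −0.14 ± 0.29 (0.702) in untreated and −0.18 ± 0.29 (0.606) in irradiated cells.

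By treatment, 5 of the 11 probe sets were lower in eIF4E precipitates of untreated cells and 0 higher, where 57.6% of all tested probe sets were called, 25.9% higher and 31.7% lower. In irradiated cells 6 were lower and 0 higher, against 58.2% called, 25.9% higher and 32.3% lower. The one added is the ITGB5 probe set 201125_s_at, at the threshold.

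**Figure D2:**
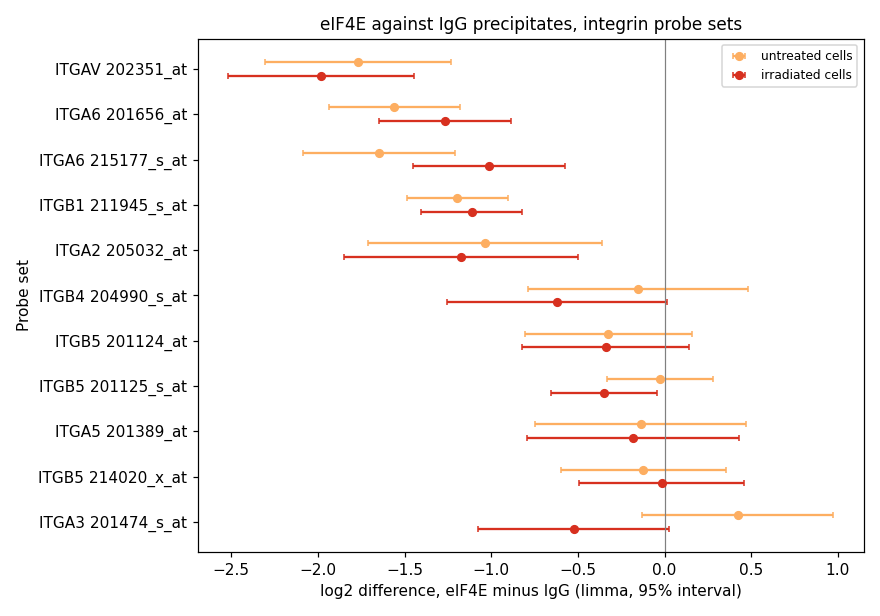
Difference in log2(signal + 16) between eIF4E and IgG precipitates for each tested integrin probe set, in untreated and in irradiated cells, with points for the fitted difference and bars for 95% intervals. The intervals of ITGAV, ITGA6, ITGB1 and ITGA2 lie below 0 in both treatments, and the others include 0 except that of ITGB5 201125_s_at in irradiated cells (−0.66 to −0.05).

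Whether the genes differed from one another was tested on the log2 ratio of each pair within an array, taken of signal + 16 and, as an alternative added after the data were seen, of the signals themselves, whose ratio no scaling of a whole array can move. Each gene entered with its brightest probe set, over 28 pairs of 8 genes and 6 against 6 arrays (exact two-sided permutation test, Benjamini-Hochberg over the 28). The ratio changed in 19 pairs, of which 18 also changed between the signals themselves. Among these 18 were all 16 that set ITGA2, ITGA6, ITGAV or ITGB1 against ITGA3, ITGA5, ITGB4 or ITGB5. That split was taken from the calls above on the same arrays, so these 16 are not independent support for it. The ratio of ITGA3 to ITGA6 was 1.36 log2 higher in eIF4E precipitates (adjusted p = 0.0055), and that of ITGAV to its partner ITGB5 fell by 1.69 (0.0055). These pairs were all run after the values of the single genes were known, and a ratio shows unequal change, not which gene moved.

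Within the group that was lower, ITGAV differed more between the antibodies than ITGB1 and ITGA6. The ITGAV to ITGB1 ratio fell by 0.72 (exact permutation test, adjusted p = 0.00808) and the ITGA6 to ITGAV ratio rose by 0.46 (0.0383). For ITGA2 to ITGAV the value was 0.77 (0.037) with the pseudocount and 0.62 (0.0939) between the signals themselves, so the call was lost there. The 3 pairs among ITGA2, ITGA6 and ITGB1 passed no threshold (adjusted p = 0.109 to 0.821), nor did any of the 6 pairs among ITGA3, ITGA5, ITGB4 and ITGB5.

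ITGB3, another beta partner of ITGAV, had no probe set above the filter. Its 7 probe sets had geometric mean signals of 11.3 to 46.8, and no single signal passed 73.5. The other probe sets below the filter are 4 of ITGB1 (means 4.74 to 21.8), 3 of ITGB4 (11.9 to 34.2) and 1 of ITGB5 (41.8). Of the 180 signals of these 15 probe sets, 3 exceeded the 67.8 given above for genes these cells should not express. ITGB1 therefore has both a very bright probe set and 4 below the filter, and its results rest on the bright one.

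Fitted with no filter, 1 dim probe set was called in the mean of both treatments, ITGB4 204989_s_at with 0.82 ± 0.28 (limma, adjusted p = 0.0254), and 1 in irradiated cells, ITGB1 216190_x_at with 0.93 ± 0.34 (0.0489). Both were higher in eIF4E precipitates, opposite in sign to the bright probe set of the same gene, which for ITGB4 was itself not called in the mean. Their signals reached no more than 61.32 and 30.23. In that fit 5 of all 26 probe sets were lower and 1 higher in the mean, where 4389 of 19064 were lower and 3398 higher. In irradiated cells 5 were lower and 1 higher, where 3289 of 19064 were lower and 2622 higher.

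**Figure D3:**
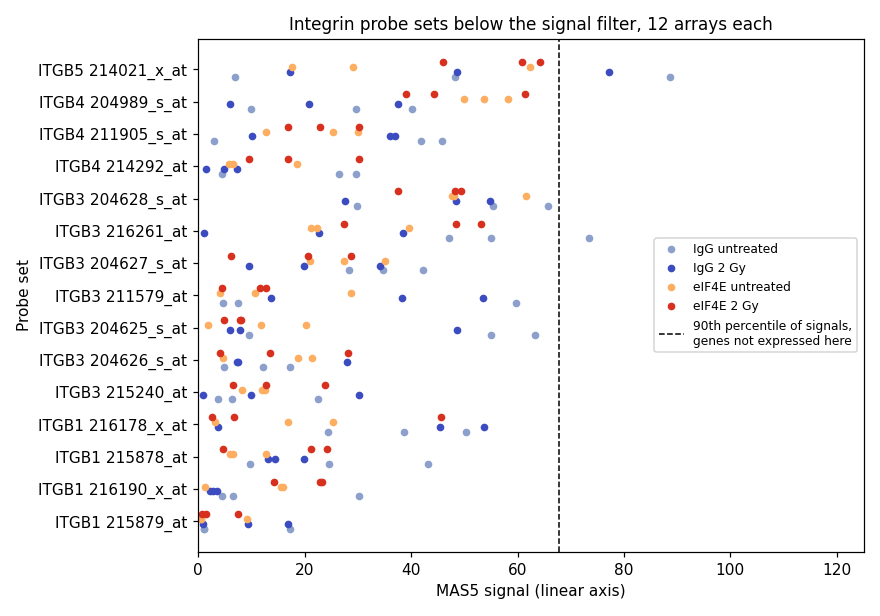
MAS5 signals (linear axis) of the 15 integrin probe sets below the filter, 1 point per array coloured by group, with a dashed line at the 90th percentile of signals of genes these cells should not express (67.8; CD14, which was above the filter, is among them). Of the 180 points, 3 lie above the line.

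The genes also differ in length. Over 7176 tested genes with a RefSeq gene span, the difference between eIF4E and IgG was lower for longer genes (Spearman's rho = −0.47 across genes, which share arrays and are not independent). With genes split by span into 4 equal bins, the median was 0.48 in the shortest bin (up to 13.1 kb, 15.7% called lower) and −0.66 in the longest (from 73.4 kb, 63.5% called lower). ITGA2 (105 kb), ITGAV (90.8 kb), ITGA6 (79.1 kb) and ITGB5 (139 kb) fall in the longest bin. ITGB3 (59.9 kb), ITGB1 (57.9 kb), ITGB4 (36.4 kb) and ITGA3 (34.4 kb) fall in the next one (median −0.25, 45.5% lower), and ITGA5 (24.0 kb) in the one after it (median 0.08, 28.0% lower). Of the 4 integrin genes called lower, 3 are thus in the longest bin, while ITGB5, the longest, was not called in the mean. The part of length in these results was not tested.

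Patterns most like those of the members at either end were sought among all tested genes by the Pearson correlation over the 12 arrays. ITGAV, with the lowest difference, was most like ADCY9 (0.988, and 0.915 after the group means were removed), NOTCH2 (0.987 and 0.904) and PCYOX1 (0.986 and 0.92), with log2 differences of −1.91 ± 0.16, −2.08 ± 0.16 and −1.25 ± 0.15 between eIF4E and IgG precipitates. ITGA3, with the difference nearest 0, was most like FXR2 (0.943 and 0.915), AP1G2 (0.908 and 0.898) and ZNF408 (0.901 and 0.877), and none of these was called. All points share the 12 arrays and fall into groups, so the correlations are descriptions.

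Irradiation gave no call for any integrin probe set. The same fit recovered 8% of changes of 0.5 log2 simulated for an antibody comparison with few changed probe sets. Small changes can thus be missed. In eIF4E precipitates 0 of 11 changed where 0% of all tested probe sets were called, and the same held in IgG precipitates (0 of 11, background 0%) and for the difference between the irradiation effects (0 of 11, background 0%). At an unadjusted limma p under 0.05, 139, 767 and 356 of 10566 probe sets passed in these comparisons, and 0, 1 and 2 of the 11. The smallest adjusted p over all probe sets was 1.0, 0.0874 and 0.999.

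In eIF4E precipitates the integrin probe sets with the smallest p were those of ITGA6, with 0.38 ± 0.21 (215177_s_at) and 0.28 ± 0.18 (201656_at), and ITGA5 with −0.39 ± 0.29. Each had an adjusted p of 1.0 in limma. For ITGA6 215177_s_at and ITGB1 all 3 irradiated arrays lay above all 3 untreated ones, and for the other 9 tested probe sets the groups overlapped. The share of all tested probe sets with such a separation was not counted, so it is a description and not read as a change. The SE of ITGA6 215177_s_at includes the spread of its IgG arrays. In irradiated cells its SD was 576.0 around a mean of 1580 after IgG and 58.97 around 739.2 after eIF4E precipitation. The 95% interval of the irradiation difference was −0.06 to 0.82 for that ITGA6 probe set, −0.14 to 0.44 for ITGB1 and −0.59 to 0.48 for ITGAV.

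In IgG precipitates the ITGA3 value was 0.89 ± 0.26 (limma, adjusted p = 0.525), with mean signals of 251.1 ± 88.0 (SD, n = 3) in untreated and 475.1 ± 135.5 in irradiated cells. The highest untreated array and the lowest irradiated array overlapped. ITGB5 201125_s_at had 0.30 ± 0.14 (adjusted p = 0.675) and ITGB5 214020_x_at −0.35 ± 0.23 (0.728).

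The irradiation effect in eIF4E minus that in IgG was −0.95 ± 0.37 for ITGA3, 0.64 ± 0.29 for ITGA6 215177_s_at and −0.32 ± 0.20 for ITGB5 201125_s_at, each with an adjusted p of 0.999 in limma. The antibody difference of ITGA3 is therefore not shown to depend on irradiation, although its values have opposite signs. IgG irradiated replicate 1 had the highest signal of all 12 arrays for 7 of the 11 probe sets, and IgG untreated replicate 1 was the lowest of its group for 7. Leaving out either array, or all arrays numbered 1, gave 0 irradiation calls of 11, and the ITGA3 value in IgG precipitates was then 0.70, 1.13 and 0.94 without the irradiated array, the untreated array and all arrays numbered 1.

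**Figure D4:**
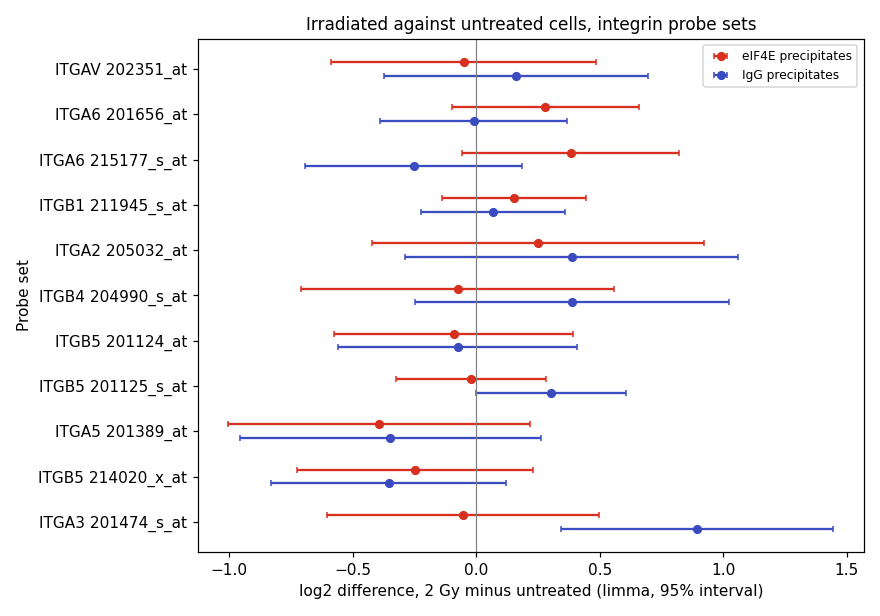
Irradiated minus untreated difference in log2(signal + 16), as points with bars for 95% intervals, for each tested integrin probe set, in eIF4E and in IgG precipitates. In eIF4E precipitates every interval includes 0; in IgG precipitates that of ITGA3 (0.89) does not, and its adjusted p is 0.525.

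Other genes of integrin adhesion were read by the brightest probe set of each, in the mean antibody comparison, where the median over 7178 tested genes was −0.07, with calls of higher for 32.5% and of lower for 38.2%. Of 17 other integrin subunits 14 were measured and 1 was above the filter. This was ITGAE, the alpha chain that binds E-cadherin, which was higher by 1.31 ± 0.10 (adjusted p = 1.23e-08). Its signals were 2635, 2144 and 2386 (IgG, untreated), 1804, 2044 and 2410 (IgG, irradiated), 6226, 4768 and 5436 (eIF4E, untreated) and 5954, 5306 and 5588 (eIF4E, irradiated). All its eIF4E arrays lay above all its IgG arrays, the opposite of ITGAV, ITGA6, ITGB1 and ITGA2.

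Matrix ligands of integrins (collagens, laminins, fibronectin and the like) were lower for 15 and higher for 0 of 18 tested genes, of 28 listed, with a median of −1.03. FBN1, a microfibril protein, had −1.67 ± 0.25 (adjusted p = 1.39e-05) and COL4A1, a basement membrane collagen chain, −1.63 ± 0.25 (2.14e-05). At the other end COL6A2, a collagen VI chain, had 0.34 ± 0.34 (0.379) and LAMA5, a laminin alpha chain, −0.16 ± 0.14 (0.313).

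Adaptors and actin linkers went both ways, with 6 higher and 11 lower of 22 tested and a median of −0.40. ILK, the pseudokinase that sits at the cytoplasmic tail of ITGB1, was higher by 2.91 ± 0.13 (adjusted p = 1.47e-10) and ZYX, an actin regulator of mature adhesions, by 1.32 ± 0.19 (1.29e-05). LPP, a relative of ZYX, had −2.04 ± 0.22 (3.41e-07) and TNS3, a tensin, −1.84 ± 0.15 (1.67e-08).

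Kinases and small GTPases of integrin signalling were lower for 9 and higher for 1 of 20, with a median of −0.30. The actomyosin kinases ROCK2 and ROCK1 had −1.70 ± 0.12 (adjusted p = 3.92e-09) and −1.57 ± 0.09 (9.82e-10), and CSK, the kinase that restrains SRC, 1.04 ± 0.10 (1.18e-07). GIT1, a scaffold of adhesion turnover, had 0.48 ± 0.31 (0.17).

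Inhibitors, membrane partners and trafficking factors of integrins had 14 higher and 6 lower of 25 tested and a median of 0.64. CD151, a tetraspanin that binds laminin-binding integrins, was higher by 1.76 ± 0.14 (adjusted p = 9.78e-09) and BSG, a membrane glycoprotein, by 1.63 ± 0.14 (2.91e-08). CD44, the hyaluronan receptor, had −2.09 ± 0.09 (6.27e-11) and CLTC, the clathrin heavy chain, −1.74 ± 0.18 (3.3e-07). The CD44 value is of its brightest probe set alone, and other CD44 probe sets, which may differ, were not read here. Irradiation gave 0 calls in each of these lists in either precipitate by limma. The lists were drawn up with earlier results of these arrays known, so their directions are not independent evidence.

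**Figure D5:**
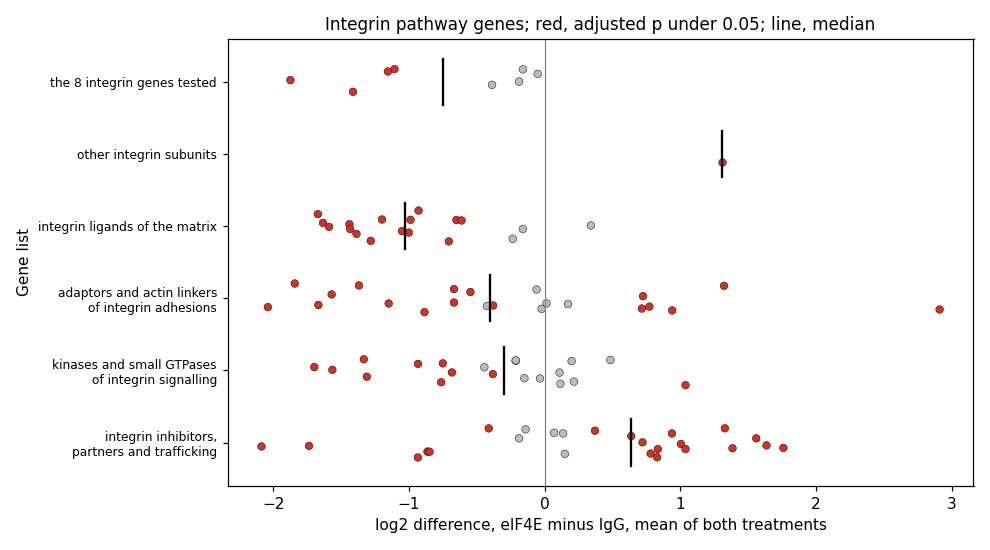
Difference in log2(signal + 16) between eIF4E and IgG precipitates (mean of both treatments) for the 8 tested integrin genes and 5 lists of related genes, 1 point per gene (brightest probe set), red where the adjusted p is under 0.05, with a line at each median. The ligands lie lowest (median −1.03) and the inhibitors and partners highest among the larger lists (0.64).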

How the data were processed

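Expression was measured on 12 Affymetrix arrays, 3 in each of 4 groups. The deposited intensity values are linear MAS5 signals made by the authors, per the submitters' processing notes, and each array has the same trimmed mean. Probe sets were named through the platform annotation: of 22277, 19064 name 1 gene, 1043 several and 2108 none, and 62 are controls. Symbols were updated or kept through the gene identifier for 19052. Probe sets at or above the 40th percentile of the genes' brightest probe sets were fitted with limma 3.58.1 (R 4.3.3; lmFit, eBayes with a variance trend, 1 mean per group) on log2(signal + 16), with 6 contrasts and Benjamini-Hochberg adjustment over 10566 probe sets at 0.05. Array measures and pairs of genes were tested by exact permutation in scipy 1.17.1. The fit was tested on simulated data with 50 known changes of each size between eIF4E and IgG precipitates of untreated cells. It recovered 8% of changes of 0.5 log2, 58% of 1, 92% of 1.5 and 94% of 2. Far fewer probe sets were changed there than the 57.6% called in the real comparison of untreated cells. The same adjusted threshold therefore asked for a smaller p in the simulation, and these rates do not describe the antibody comparisons here.

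All integrin probe sets are named. Of each list up to 2 genes at either end, and for each of the members at either end the 3 most alike genes, are named. In irradiation comparisons the 3 members with the smallest p are named. ITGAE is the sole tested gene of its list. The members and lists were chosen with earlier results of these data known.

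Same-numbered arrays of untreated and irradiated eIF4E precipitates deviated together (correlations 0.355, 0.198 and 0.148), and every other pair of groups had at least 1 number under 0.1. For arrays numbered 1 the correlation was positive in every pair of groups, from 0.094 to 0.355. What same-numbered arrays share was not tested, and the replicate block stays an alternative. The alternatives covered pseudocount, filter, normalization, variance trend, array weights, probe set summary, the block and leaving out arrays. The number of arrays limits the precision.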

Additional observations from a re-analysis of the deposited data

How the results depend on the processing

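Over 27 alternatives the number of called integrin probe sets ranged from 4 to 6 in untreated cells (5 as reported), from 4 to 7 in irradiated cells (6) and from 4 to 6 in the mean of both treatments (5). Leaving out arrays gave 4 to 6, 4 to 7 and 5 to 6. No alternative gave a call for irradiation, where all counts were 0. With the replicate block the counts were 5, 7 and 6, and the block changed no integrin call other than those of ITGB4. ITGA6, ITGAV and ITGB1 kept direction and call in all 3 antibody comparisons under every alternative. The mean difference ranged from −2.02 to −1.75 for ITGAV, from −1.50 to −1.32 and from −1.49 to −1.21 for ITGA6, from −1.21 to −1.01 for ITGB1 and from −1.37 to −0.79 for ITGA2. The ITGB5 call in irradiated cells was lost in 18 alternatives, with median centring among them (−0.28, limma adjusted p = 0.106). ITGB5 201124_at was called in the mean with no variance trend (adjusted p = 0.0285), with array weights (0.0494) and without IgG irradiated replicate 1 (0.0423), and 201125_s_at without IgG irradiated replicate 2 (0.0333). ITGB4 was called in the mean without IgG irradiated replicate 3 (0.039) and without IgG untreated replicate 3 (0.0426). Of the 19 pairs whose ratio changed, 18 did so with no pseudocount, an alternative chosen after seeing the data. The cause was not tested. Signal close to that of genes these cells should not express limits ITGA2, ITGA5 and all of ITGB3.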
